A study of Mus musculus with 6 samples.

Results

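The mRNAs of 10 maternal chromatin genes were followed in mouse oocytes that lacked the RNA-binding protein LSM14B. The genes were the linker histones H1foo and H1f0, the histone H2A variants H2afz and H2afx, the H3.3 genes H3f3a and H3f3b, the nucleoplasmin family members Npm2 and Npm3, the histone chaperone Nasp and the stem-loop binding protein gene Slbp. They were chosen by name, from the symbols used in the deposited table, and all 10 were found among its 24255 genes. The samples were fully-grown oocytes (FGOs) at the germinal vesicle (GV) stage, which are full-sized but still arrested in prophase of meiosis I. There were 3 libraries from wild type (WT) females and 3 from Lsm14b-KO females, with 20 oocytes in each library. Lsm14b-KO females were homozygous for Lsm14b tm1a(KOMP)Mbp, a knockout-first, reporter-tagged insertion that is present in every cell of the body, and the line was kept on a C57BL/6J background. Females of both genotypes received 5 IU of the gonadotropin PMSG 46 h before collection. The age of the mice is not given in the sources used here. Neither is it stated whether the 3 libraries of a genotype came from separate animals, so the p-values measure only the spread between these samples, which may be technical.

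An oocyte stores chromatin proteins, and the mRNAs that encode them, for a time when its own transcription is silent. After fertilization these stores repackage the sperm genome, provide histones for the first cell divisions and replace somatic or sperm proteins on the chromatin. Replication-dependent histone mRNAs usually end in a stem-loop that is bound by SLBP instead of a poly(A) tail, while the genes of most replacement variants make polyadenylated mRNAs.

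Levels were taken as FPKM, the fragments assigned to a gene relative to the length of its transcript and to the library's mapped fragments, and differences were tested on log2(FPKM + 1) with limma. The fold changes below are Lsm14b-KO minus WT on that scale, which understates the change of genes near or below 1 FPKM. The targeted gene was read first. Lsm14b had 2.77, 3.98 and 1.72 FPKM in WT, was listed at 0 in Lsm14b-KO replicates 1 and 2 and had 0.102 FPKM in replicate 3 (log2 fold change -1.85, adjusted p = 0.00380). The libraries differed in scale. FPKM summed to between 1141324 and 1244182 in WT and to 1029728, 564671 and 676656 in Lsm14b-KO replicates 1, 2 and 3, and the table holds no counts, so the depth behind each value is unknown. In H1foo, H3f3a, H3f3b and Slbp, Lsm14b-KO replicate 1 was nearer to WT than the other KO libraries were. Values are therefore also given without that library where it changes a call, and after each library had been scaled to the same FPKM sum, called TPM-scaled below. That scaling raised the median log2 fold change of all tested genes by 0.475. The 8 oocyte markers, of which Ooep was the most abundant, summed to 8810 to 9726 FPKM in WT and to 10570 to 11040 FPKM in Lsm14b-KO. All 8, among them Zp1 to Zp3 and Gdf9, were tested, and none had an adjusted p under 0.05. The 10 cumulus and granulosa cell markers summed to 9.73 to 13.6 FPKM in WT and to 6.14 to 10.1 FPKM in Lsm14b-KO, with Amh, Foxl2 and Inhba at 0 in every library. Of the 3 that were tested, Cyp19a1 was lower in Lsm14b-KO (log2 fold change -0.98, adjusted p = 0.0426), and its part in the results below was not tested. The 6 red blood cell markers were at 0 throughout, and the 3 leukocyte markers summed to at most 0.733 FPKM in any library. In pools of oocytes, fewer cells with an mRNA and less of it per cell cannot be told apart.

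In WT FGOs the 10 genes fell into 3 tiers of abundance. H1foo, H3f3b, Slbp and H3f3a lay between 3175 and 8407 FPKM, Npm2 lay between 675 and 707 FPKM, and H2afz, Nasp and H2afx lay between 4.19 and 27.9 FPKM. H1f0 stayed below 1 FPKM and Npm3 was listed at 0. Each gene was above the next in all 3 WT libraries, without overlap, except that Slbp and H3f3a overlapped. In Lsm14b-KO FGOs the ranges of the 4 most abundant genes over the libraries overlapped with their neighbours, as did those of H1f0 and H2afx. Those ranges span libraries that differ in scale. Within each Lsm14b-KO library H1foo was above H3f3b, and H3f3b was above H3f3a. The order of H3f3a and Slbp varied between the Lsm14b-KO libraries, as did that of H1f0 and H2afx. The 10 genes together made up 1.79%, 1.77% and 1.85% of the FPKM sum in WT, against 1.60%, 1.25% and 1.34% in Lsm14b-KO.

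**Figure D1:**
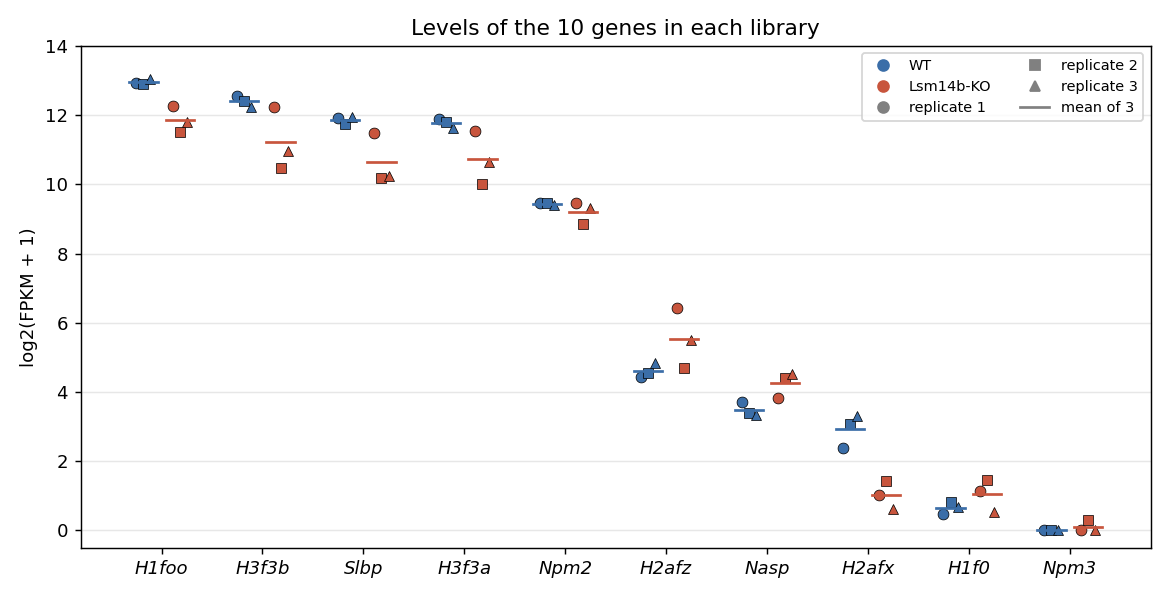
Level of each of the 10 genes in each library as log2(FPKM + 1), ordered by the WT mean, with WT in blue, Lsm14b-KO in red, a marker shape for each replicate number and a line at the mean of 3 libraries. All 3 Lsm14b-KO points lie below the WT points for H1foo, Slbp, H3f3a and H2afx, and all 3 lie above them for Nasp.

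Of the 10 genes, 9 reached 1 FPKM in at least 1 library and were tested, and H1f0 did so only in Lsm14b-KO libraries. H1foo and H2afx were past the threshold, an adjusted p under 0.05, and both were lower in Lsm14b-KO. Of all 6398 tested genes 21.6% passed in either direction, with 15.2% lower and 6.38% higher in Lsm14b-KO, so 2 of 9 is near the background. Levels were lower in every Lsm14b-KO library than in any WT library for 4 genes (H1foo, H2afx, H3f3a and Slbp), against 26.0% of all tested genes, and higher in every Lsm14b-KO library for Nasp alone, against 19.1%. TPM-scaled, the groups stood apart with lower values in Lsm14b-KO for H1foo, H2afx and Slbp, against 15.1% of all tested genes. They stood apart with higher values for H1f0, H2afz, Npm2 and Nasp, against 32.5%. H1f0 was tested only through its Lsm14b-KO values, so its place among the higher genes followed partly from the filter. The median log2 fold change was -1.05 over the 9 genes and -0.08 over all tested genes, and 6 of the 9 were at an unadjusted p under 0.05, against 39.4% of all tested genes. That median of the 9 genes was -0.35 when TPM-scaled, -0.18 after quantile normalization, -0.66 after correction for transcript length and GC content and -0.69 without Lsm14b-KO replicate 2.

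**Figure D2:**
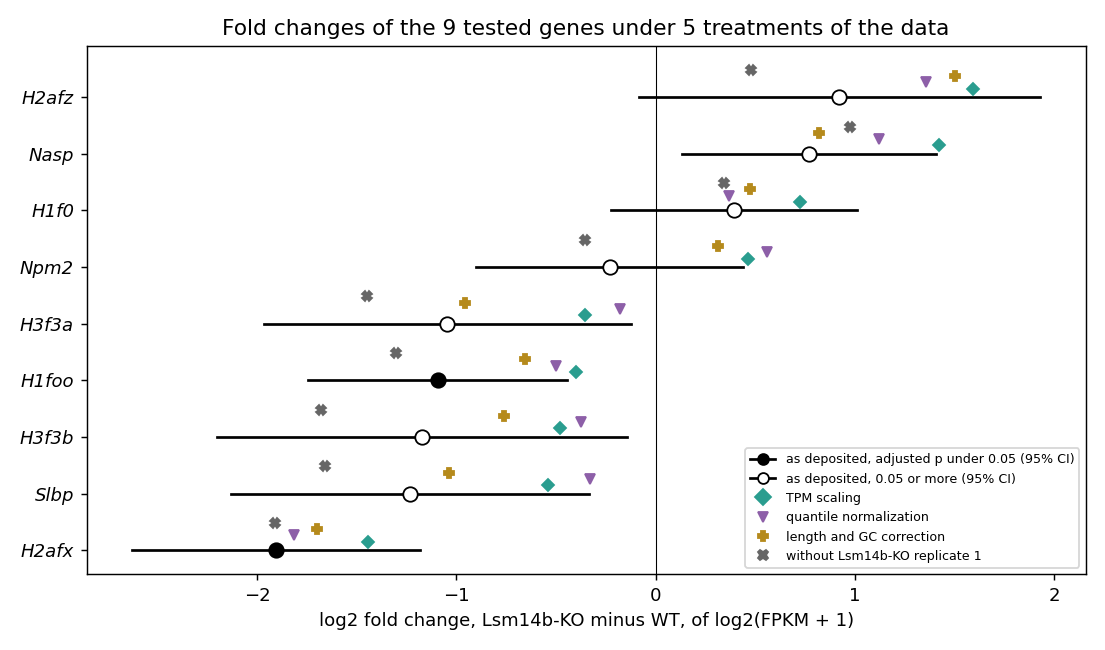
Log2 fold changes (Lsm14b-KO minus WT) of the 9 tested genes, as deposited (circles with 95% confidence intervals, filled where the adjusted p is under 0.05), after 3 other scalings and without Lsm14b-KO replicate 1. H2afx is below -1.4 under every treatment shown, whereas Npm2 moves from -0.23 to values above 0 when the libraries are rescaled.

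The linker histones came first. H1foo encodes the oocyte-specific linker histone, which is laid down on maternal chromatin and is exchanged for somatic H1 during early development. The gene lies at chr6:115944938-115950236 on the plus strand (GRCm38). It was the most abundant of the 10 genes in WT, with 7840, 7575 and 8407 FPKM, and had 4962, 2909 and 3555 FPKM in Lsm14b-KO. Every KO library was below every WT library, and the means were 7941 ± 425 and 3809 ± 1050 FPKM (SD, n = 3 libraries each). The log2 fold change was -1.09 (SE 0.28, 95% confidence interval -1.74 to -0.44), with an adjusted p of 0.0310 in limma. H1foo also stood lower in the order of all genes, at rank 31, 30 and 26 in WT and at 43, 43 and 39 in Lsm14b-KO. TPM-scaled, its levels were 6301, 6464 and 7366 in WT and 4819, 5152 and 5254 in Lsm14b-KO, still without overlap, and the log2 fold change of -0.40 no longer passed (adjusted p = 0.0935). The call was lost without WT replicate 1, 2 or 3 (adjusted p = 0.124, 0.113 and 0.117) and without Lsm14b-KO replicate 2 or 3 (0.0599 and 0.129), and it was kept without Lsm14b-KO replicate 1 (log2 fold change -1.30, adjusted p = 0.00205).

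H1f0, the gene of the replacement linker histone H1.0 that somatic cells use after they stop dividing, was scarce beside H1foo. It had 0.375, 0.765 and 0.605 FPKM in WT and 1.22, 1.73 and 0.459 FPKM in Lsm14b-KO, and the groups overlapped because Lsm14b-KO replicate 3 lay within the WT range (log2 fold change 0.39, SE 0.27, adjusted p = 0.295 in limma). TPM-scaled levels did not overlap, but WT replicate 2 (0.653) and Lsm14b-KO replicate 3 (0.678) were close. H1f0 reached the 1 FPKM needed for testing in Lsm14b-KO libraries alone, so a higher level there followed partly from its being tested. The gene was not past the threshold in any alternative, and the 95% confidence interval of its log2 fold change ran from -0.22 to 1.01. H1f0 (chr15:79028450-79030504, plus strand) overlaps Gm49544 on the opposite strand, and the sources do not say whether the libraries kept strand, so reads of these genes cannot be told apart. The H1FOO and H1.0 proteins encoded by the annotated transcripts share 69 of 175 aligned residues (39.4%).

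The H2A variants had fold changes of opposite sign. H2AFX is the variant that is phosphorylated around DNA double-strand breaks. H2afx, at chr9:44334694-44336077 on the plus strand, had 4.19, 7.48 and 8.95 FPKM in WT and 1.04, 1.67 and 0.529 FPKM in Lsm14b-KO. No library overlapped, and the highest KO value was below the lowest WT value. The means were 6.87 ± 2.44 and 1.08 ± 0.571 FPKM (SD, n = 3 each), and the log2 fold change of -1.91 (SE 0.31, 95% confidence interval -2.63 to -1.18) had an adjusted p of 0.00693 in limma. It was the sole gene of the 10 that stayed past the threshold in all 16 alternatives, with adjusted p between 0.00624 and 0.0465 and log2 fold changes between -2.74 and -1.44. H2afx overlaps Gm44335 on the opposite strand and shares a 203 nt stretch at 95% identity or more with the pseudogene Gm11336, so part of its reads could have been assigned to either. Its fold change is from low levels, where a pseudocount of 0.1 FPKM in place of 1 gave -2.62.

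H2afx was also the sole gene of the 10 with a histone stem-loop after its coding sequence, and the site is shown because SLBP, the product of another gene of the set, binds such stem-loops. The search was for a 6-base stem that starts with GG, a 4-base loop that starts with TT and the reverse complement of the stem, on the transcript's strand. The match, in capitals with 5 flanking bases on each side in the GENCODE transcript, was:
H2afx: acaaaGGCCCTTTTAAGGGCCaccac
It begins 46 nt after the end of the coding sequence and ends 822 nt before the annotated end of the transcript. The annotated transcript therefore runs on beyond the stem-loop. A match was found after the coding sequence in 94 of 21877 protein-coding genes (0.43%), and in 44 of 67 genes with a Hist symbol (65.7%). The design text names Smart-seq2, which usually primes on poly(A) tails, together with random primers. Whether H2afx mRNA that ends at the stem-loop was captured as well as its polyadenylated form is therefore not known.

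H2AFZ is the variant placed at promoters and at the borders of heterochromatin. H2afz (chr3:137864487-137866922, plus strand) had 20.6, 22.5 and 27.9 FPKM in WT and 84.7, 24.8 and 44.0 FPKM in Lsm14b-KO. Lsm14b-KO replicates 1 and 3 were above every WT library, and replicate 2 fell between WT replicates 2 and 3. The means were 23.6 ± 3.79 and 51.2 ± 30.6 FPKM (SD, n = 3 each), and the log2 fold change of 0.92 (SE 0.44) did not pass, with an adjusted p of 0.152. TPM-scaled levels did not overlap, with 16.5, 19.2 and 24.4 in WT and 82.3, 43.9 and 65.0 in Lsm14b-KO, and the log2 fold change of 1.59 passed (adjusted p = 0.0163). It also passed without Lsm14b-KO replicate 2 (1.34, adjusted p = 0.0441), whereas without Lsm14b-KO replicate 1, the highest library, it was 0.48 (adjusted p = 0.205). H2afz has 4 near-identical copies elsewhere in the annotation, 2 of them processed pseudogenes, so its level is less certain than that of H1foo. The H2AFZ and H2AFX proteins share 79 of 124 aligned residues (63.7%).

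The H3.3 genes came next. H3f3a (chr1:180800832-180813943, minus strand) and H3f3b (chr11:116021912-116027962, minus strand) encode the same protein, the H3 variant that is placed on chromatin outside of replication and that replaces protamines in the sperm genome. The encoded proteins were identical at 136 of 136 residues, whereas the coding sequences differed at 95 of 411 bases and shared no identical run longer than 23 nt. The first 60 coding bases show how reads of the genes can be told apart, with the 13 differing bases in capitals:
H3f3a: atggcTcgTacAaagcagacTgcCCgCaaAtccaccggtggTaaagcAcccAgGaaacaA
H3f3b: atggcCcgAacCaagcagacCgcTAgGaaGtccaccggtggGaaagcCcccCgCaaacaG
Reads could also have been assigned to pseudogenes, of which 16 match H3f3a and 2 match H3f3b in stretches of 200 nt or more with at least 95% identity. H3f3a also overlaps H3f3aos and Gm17275 on the opposite strand.

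H3f3a had 3823, 3590 and 3175 FPKM in WT and 2987, 1040 and 1592 FPKM in Lsm14b-KO. The groups did not overlap, although Lsm14b-KO replicate 1 was close to WT replicate 3, and limma gave -1.05 on the log2 scale (SE 0.40, adjusted p = 0.0943). H3f3b had 6046, 5438 and 4814 FPKM in WT and 4841, 1424 and 2002 FPKM in Lsm14b-KO, and here Lsm14b-KO replicate 1 was above WT replicate 3. The log2 fold change of H3f3b was -1.17 with an SE of 0.45 (adjusted p = 0.0929). Neither passed in limma with all libraries. Without Lsm14b-KO replicate 1 both passed, at -1.45 for H3f3a (adjusted p = 0.00351) and at -1.68 for H3f3b (adjusted p = 0.00160). Without Lsm14b-KO replicate 2 the fold changes were smaller, -0.69 for H3f3a (adjusted p = 0.195) and -0.80 for H3f3b (0.212). The other alternatives did not take either gene past the threshold. TPM-scaled log2 fold changes were smaller, -0.35 for H3f3a and -0.48 for H3f3b, and the TPM-scaled levels of the groups overlapped for both.

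Summed over the genes, H3.3 mRNA was 9868, 9028 and 7990 FPKM in WT and 7828, 2465 and 3595 FPKM in Lsm14b-KO. As deposited, the sum was lower in each KO library than in any WT library, by a small margin for Lsm14b-KO replicate 1. TPM-scaled it was 7932, 7704 and 7000 in WT and 7602, 4365 and 5312 in Lsm14b-KO, and the groups overlapped. H3f3b supplied 61.3%, 60.2% and 60.3% of the sum in WT and 61.9%, 57.8% and 55.7% in Lsm14b-KO. The share moved far less than the sum, and Lsm14b-KO replicate 1 was above the WT libraries while the other KO libraries were below them.

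Next came the chaperones that handle these histones. NPM2 is the egg nucleoplasmin, which binds histones and takes part in decondensing sperm chromatin and in organizing the oocyte nucleolus. Npm2, at chr14:70647302-70659244 on the minus strand, had 699, 707 and 675 FPKM in WT and 701, 460 and 640 FPKM in Lsm14b-KO. Lsm14b-KO replicate 1 lay among the WT libraries and replicates 2 and 3 lay below them. The means were 693.8 ± 16.4 and 600.4 ± 125 FPKM (SD, n = 3 each), and the log2 fold change of -0.23 (SE 0.29, 95% confidence interval -0.90 to 0.44) had an adjusted p of 0.564. Its direction depended on the scaling. TPM-scaled levels were 562, 603 and 592 in WT and 681, 814 and 946 in Lsm14b-KO, without overlap, with a log2 fold change of 0.46 (adjusted p = 0.121). Measured from the median that all tested genes had under the same scaling, the TPM-scaled value was 0.06 and the deposited value was -0.16. Npm2 overlaps Xpo7 on the same strand.

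Npm3, the family member found in many somatic tissues, was listed at 0 in all 3 WT libraries and in Lsm14b-KO replicates 1 and 3, and had 0.219 FPKM in Lsm14b-KO replicate 2. It was not tested. A value of 0 in a table without counts can be a failed estimate, so no fold is given. Npm3 lies at chr19:45747734-45749591 on the minus strand. The NPM2 and NPM3 proteins share 57 of 150 aligned residues (38.0%). The longest unbroken run of aspartate and glutamate, the acidic residues through which nucleoplasmins hold histones, was 18 residues in NPM2 and 5 in NPM3.

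NASP is the chaperone that keeps a soluble reserve of H3 and H4 and also binds linker histones. Nasp (chr4:116601052-116627941, minus strand) had 12.0, 9.45 and 9.15 FPKM in WT and 13.3, 20.0 and 21.8 FPKM in Lsm14b-KO. It was the sole gene of the 10 that was higher in every KO library than in any WT library. The means were 10.2 ± 1.56 and 18.4 ± 4.49 FPKM (SD, n = 3 each), and the log2 fold change of 0.77 (SE 0.28, 95% confidence interval 0.13 to 1.41) did not pass, with an adjusted p of 0.0797. TPM-scaled levels were 9.63, 8.06 and 8.02 in WT and 12.9, 35.5 and 32.1 in Lsm14b-KO, and the log2 fold change of 1.42 passed (adjusted p = 0.0395). It also passed without Lsm14b-KO replicate 1 (0.98, adjusted p = 0.00858).

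SLBP binds the stem-loop of replication-dependent histone mRNAs and is needed for their processing and translation, and oocytes need it to accumulate stored histones. Slbp lies at chr5:33634952-33652574 on the minus strand, where Gm10459 overlaps it on the opposite strand. The processed pseudogene Gm8396 matches it over 828 nt at 95% identity or more, so part of the reads could have been assigned there. Slbp had 3829, 3424 and 3961 FPKM in WT and 2857, 1167 and 1198 FPKM in Lsm14b-KO. All KO libraries were below all WT libraries, with Lsm14b-KO replicate 1 nearest to WT. The means were 3738 ± 280 and 1741 ± 967 FPKM (SD, n = 3 each), and the log2 fold change of -1.23 (SE 0.39, 95% confidence interval -2.13 to -0.34) just missed the threshold, with an adjusted p of 0.0561 in limma. The fold change was -1.66 when Lsm14b-KO replicate 1 was left out (adjusted p = 0.000783). TPM-scaled, Slbp had 3078, 2922 and 3471 in WT and 2775, 2067 and 1770 in Lsm14b-KO, still without overlap, and a log2 fold change of -0.54 (adjusted p = 0.0941).

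Ratios of related genes within a library do not depend on its overall scale, apart from the pseudocount of 1 FPKM. With 3 libraries in each group, the exact two-sided permutation test of such a ratio cannot give a p below 0.10, so none of the 4 ratios compared could pass. The log2 ratio of H1foo to H1f0 was 12.5, 12.1 and 12.4 in WT and 11.1, 10.1 and 11.3 in Lsm14b-KO, a difference of -1.49 without overlap (exact permutation p = 0.10, 0.20 after adjustment over the 4 ratios). Because H1f0 was near or below 1 FPKM, that ratio depended on the pseudocount and was not free of library scale. The difference was -1.83 with a pseudocount of 0.1 FPKM and -1.91 with 0.01 FPKM. After quantile normalization, which changes values gene by gene within a library, the difference was -0.87. The ratio of H2afz to H2afx differed most. It was 2.06, 1.47 and 1.54 in WT and 5.39, 3.27 and 4.88 in Lsm14b-KO, a difference of 2.83 without overlap (exact permutation p = 0.10, adjusted 0.20). Every KO library therefore had more H2afz relative to H2afx than any WT library, and the difference ran from 2.39 to 3.45 as each library was left out. H2afx was near or below 1 FPKM in Lsm14b-KO, so this ratio also depended on the pseudocount and was not free of library scale. Its difference was 3.56 with a pseudocount of 0.1 FPKM and 3.68 with 0.01 FPKM.

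The ratio of H3f3a to H3f3b overlapped between the groups. It was -0.66, -0.60 and -0.60 in WT and -0.70, -0.45 and -0.33 in Lsm14b-KO, a difference of 0.13 (exact permutation p = 0.40) that became -0.20 after correction for transcript length and GC content. For Npm2 to Npm3 the difference was -0.33 (exact permutation p = 0.30), which restates the level of Npm2 because Npm3 was at or near 0.

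**Figure D3:**
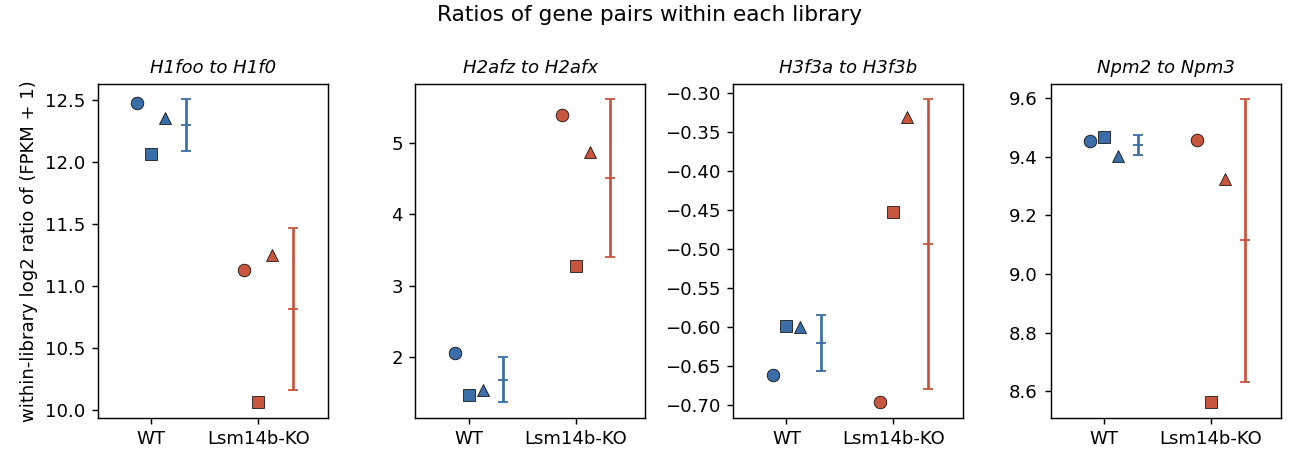
Within-library log2 ratio of (FPKM + 1) for 4 gene pairs, with a marker shape for each replicate number and bars for the mean and SD of 3 libraries; each panel has its own vertical scale and does not start at 0. The groups stand apart for H1foo to H1f0 and for H2afz to H2afx, and overlap for the other pairs.

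Other genes of these pathways were read from a list of 63 symbols, of which 62 were in the table and 35 were tested. Of these, 10 passed, 8 lower and 2 higher in Lsm14b-KO, which is 28.6% against the 21.6% of all tested genes. The median log2 fold change of the list was 0.07. H3f3c was the symbol not found, and the 4 genes listed for the phosphorylation and reading of H2AX (Atm, Atr, Prkdc and Mdc1) were all under 1 FPKM.

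All 3 tested genes among the other histone variants were past the threshold and lower, against 15.2% of all tested genes. H2afv encodes H2A.Z.2, which shares 125 of 128 residues with the H2A.Z protein of H2afz, while their coding sequences differ at 81 of 387 bases and share no identical run longer than 14 nt. It had 9.60, 11.3 and 9.26 FPKM in WT and 1.66, 0.852 and 0.253 FPKM in Lsm14b-KO (log2 fold change -2.59, adjusted p = 0.00202). By contrast, no H2afz value in Lsm14b-KO was below the lowest in WT, and the difference between the genes was not tested. Cenpa, which encodes the centromeric H3 variant, had 14.5, 9.54 and 13.4 FPKM in WT and 0.798, 1.37 and 3.29 FPKM in Lsm14b-KO (-2.33, adjusted p = 0.00484). H2afv and Cenpa stayed past the threshold in every alternative. H2afj had 40.9, 34.8 and 42.2 FPKM in WT and 18.7, 16.2 and 14.2 FPKM in Lsm14b-KO (-1.22, adjusted p = 0.0162), and it did not pass when TPM-scaled (-0.55, adjusted p = 0.139). Its call was also lost without WT replicate 1, 2 or 3 or Lsm14b-KO replicate 3 (adjusted p = 0.0816, 0.0665, 0.0685 and 0.0852).

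Among the histone chaperones and remodellers 2 of 19 tested genes (10.5%) passed, both lower, which is below the 21.6% of all tested genes. Mis18a, whose product prepares the centromere for CENP-A loading, had 76.0, 82.4 and 97.5 FPKM in WT and 11.3, 14.2 and 12.8 FPKM in Lsm14b-KO (-2.64, adjusted p = 0.00121), with no overlap and little spread within either group. It passed in every alternative. Ruvbl1, an ATPase of the complexes that exchange H2A.Z, had 3.26, 5.53 and 4.37 FPKM in WT and 2.71, 0.465 and 1.16 FPKM in Lsm14b-KO (-1.22, adjusted p = 0.0426), and it did not pass when TPM-scaled (-0.83, adjusted p = 0.0965). Leaving out WT replicate 1, 2 or 3 also ended its call (adjusted p = 0.0999, 0.147 and 0.127), as did leaving out Lsm14b-KO replicate 2 or 3 (0.10 and 0.142).

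The partners of SLBP in histone mRNA processing divided. Lsm10, a subunit of the U7 snRNP that cleaves histone pre-mRNA, was as abundant as Slbp, with 4023, 3423 and 3140 FPKM in WT and 2315, 907 and 1288 FPKM in Lsm14b-KO (-1.33, adjusted p = 0.0424). All KO libraries were lower, and the call was lost when TPM-scaled (-0.64, adjusted p = 0.0516), without WT replicate 1, 2 or 3 (adjusted p = 0.158, 0.131 and 0.114) and without Lsm14b-KO replicate 2 or 3 (0.0805 and 0.148). Zfp473, whose product bridges SLBP and the U7 snRNP, had 0.608, 0.400 and 0.369 FPKM in WT and 2.06, 4.52 and 2.66 FPKM in Lsm14b-KO (1.44, adjusted p = 0.00885). It reached the 1 FPKM needed for testing in the Lsm14b-KO libraries alone, so a difference followed from its being tested, and it missed the threshold without WT replicate 3 (adjusted p = 0.0508). Cstf2, a subunit of the cleavage stimulation factor, had 1.20, 0.422 and 0.409 FPKM in WT and 2.11, 2.82 and 2.23 FPKM in Lsm14b-KO (1.04, adjusted p = 0.0215). Its call was lost without WT replicate 2 or 3 or Lsm14b-KO replicate 2 or 3 (adjusted p = 0.0915, 0.0862, 0.0590 and 0.0846). Casp8ap2 (0.99, adjusted p = 0.118) and Mif4gd (-0.43, adjusted p = 0.247) did not pass with all libraries, and Casp8ap2 passed without Lsm14b-KO replicate 1 (1.48, adjusted p = 0.00426). The other 6 genes of this group were under 1 FPKM in every library.

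High mobility group proteins bend DNA or bind nucleosomes, and 2 of the 8 tested (25.0%) passed, both lower, against 21.6% of all tested genes, which is near the background. Hmgn1 had 183, 176 and 146 FPKM in WT and 57.1, 52.5 and 40.3 FPKM in Lsm14b-KO (-1.74, adjusted p = 0.00707), and narrowly missed without Lsm14b-KO replicate 3 (adjusted p = 0.0516). Hmgb2 had 541, 565 and 437 FPKM in WT and 269, 55.6 and 100 FPKM in Lsm14b-KO (-2.15, adjusted p = 0.0292), again with Lsm14b-KO replicate 1 nearest to WT. Its call was lost without WT replicate 1, 2 or 3 (adjusted p = 0.115, 0.112 and 0.0930) and without Lsm14b-KO replicate 2 or 3 (0.0507 and 0.117). The remaining 6 had log2 fold changes on both sides of 0 and did not pass.

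**Figure D4:**
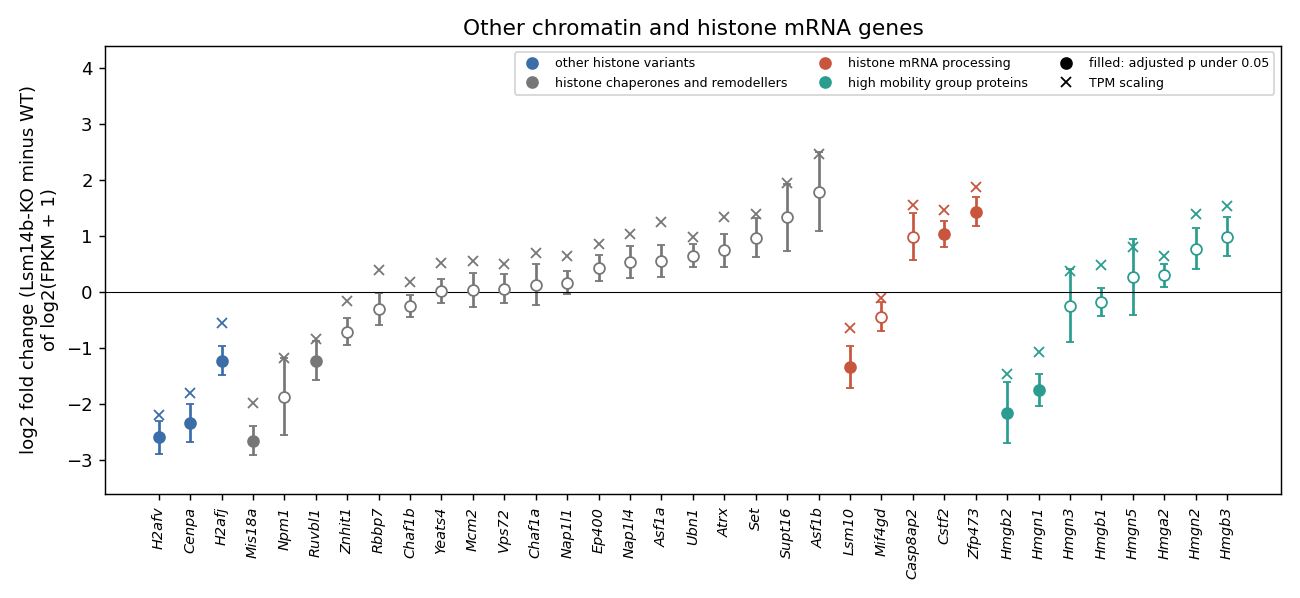
Log2 fold changes (Lsm14b-KO minus WT, points with SE) of the 35 tested genes of the list, by group, with filled points for an adjusted p under 0.05 and crosses for the TPM-scaled value. The 3 other histone variants are all filled and below 0, whereas 13 of the 19 chaperones and remodellers lie above 0 and none of those is filled.

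The genes whose pattern over the 6 libraries was most like that of a member were sought among 2554 tested genes with a mean of at least 5 FPKM, by the Euclidean distance between log2(FPKM + 1) values after each gene's mean was subtracted. For H1foo they were Med4 (distance 0.19), Taf12 (0.21) and Mrps25 (0.21). Med4 had 351, 364 and 397 FPKM in WT and 252, 142 and 187 FPKM in Lsm14b-KO, so Lsm14b-KO replicate 2 was lowest in it as in H1foo. For Slbp they were Obox5 (0.15), Cdk20 (0.17) and Nudcd1 (0.19). Obox5, an oocyte homeobox gene, had 52810, 47580 and 51990 FPKM in WT and 35040, 15640 and 16380 FPKM in Lsm14b-KO, with replicates 2 and 3 lowest, as in Slbp. For Npm2 they were Zswim7 (0.14), Det1 (0.14) and Eif3m (0.19). These distances describe 6 libraries that share their scale, and no test was made of them.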

How the data were processed

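Gene expression values of 3 WT and 3 Lsm14b-KO libraries of GV-stage FGOs were analysed, grouped by sample title and genotype label. Per the labels, RNA was amplified by Smart-seq2, and 2 library kits are named in different places. After trimming, the authors aligned reads to mm10 with tophat2 (version 2.0.13) and computed the deposited FPKM values with cufflinks (version 2.2.1), which is also the version given for cuffdiff. Annotation and strandedness are not given in the sources used here. FPKM is by definition relative to each library's own total, so abundant transcripts move all other values. Cuffnorm is also named among the authors' tools, without a version. Whether the deposited values were rescaled between libraries is therefore not known. Columns holding the authors' own fold changes, p-values and q-values were not used. A total of 27 gene symbols had turned into dates and could not be named.

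The members, lists and tests were chosen with earlier results of these data known. Of 24255 genes, the 6398 that reached 1 FPKM in any library were tested on log2(FPKM + 1) with limma 3.58.1 in R 4.3.3 (lmFit, eBayes with trend, genotype only, two-sided), with Benjamini-Hochberg adjustment over all of them. The script was tested on simulated data, where it called 23% of the 2-fold changes put in and 79% of the 4-fold changes. A gene that did not pass can therefore still differ. Fold changes are differences of mean log2 values, so a ratio of mean FPKM can differ from them. Within-library ratios were tested by exact permutation (scipy 1.17.1).

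Genes were named by a rule. It took all 10 members and Lsm14b. From each group of the list it took up to 4 genes past the threshold with the largest change, and histone mRNA processing genes with a mean of at least 1 FPKM. For H1foo, Npm2 and Slbp it took the 3 nearest genes by pattern. Coordinates, transcripts and coding sequences came from GENCODE vM21 (GRCm38, the mm10 assembly), and protein comparisons from translated coding sequences. Copies were sought with blastn 2.17.0 with at least 95% identity in alignments of 200 nt or more. Alternatives were other pseudocounts, filters, scalings and variance models, a replicate block, and each library left out. A median-ratio scaling was added after seeing the data.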

Additional observations from a re-analysis of the deposited data

How the results depend on the processing

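Of 143 values of the 9 tested genes under the alternatives, 118 kept both direction and side of the threshold, 12 passed newly, 9 no longer passed and 4 changed sign. The 9 were all of H1foo and the 4 all of Npm2, which was 0.46 after TPM scaling, 0.56 after quantile normalization, 0.31 after correction for transcript length and GC content and 0.034 after median-ratio scaling (chosen after seeing the data), against -0.23 as deposited. The count of the 10 genes past the threshold, 2 as deposited, was 1 with a pseudocount of 0.01 FPKM, 1 without the filter, 4 after quantile normalization and 1 to 6 with 1 library left out. It was 6 without Lsm14b-KO replicate 1 (H1foo, H2afx, H3f3a, H3f3b, Nasp and Slbp). The median log2 fold change of the 9 genes, -1.05, was -0.35 after TPM scaling and -0.18 after quantile normalization. The difference in the ratio of H3f3a to H3f3b, 0.13, was -0.20 after the length and GC correction. The list of other chromatin genes gave 6 calls without the filter and 4 to 20 with 1 library left out, against 10. All tested genes gave 720 calls without the filter, where 14325 genes were tested, and 315 to 2898 with 1 library left out (2898 without Lsm14b-KO replicate 1), against 1383. Other causes of these changes were not tested. The share of calls that were higher in Lsm14b-KO was 29.5% as deposited, 63.2% after TPM scaling, 42.4% after quantile normalization, 45.2% after the length and GC correction and 43.9% after median-ratio scaling. Those scalings moved the median of all tested genes by 0.475, 0.14, 0.18 and 0.18.

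WT and Lsm14b-KO libraries share replicate numbers, and whether the numbers pair them is not given in the sources used here. The deviations from the group means of same-numbered libraries correlated at 0.19, -0.13 and 0.018 across genes, and only WT replicate 1 correlated best with its own number. Library scale enters these deviations, so they cannot show whether same-numbered libraries were collected together. With the replicate block 1 of the 10 genes passed, H2afx, and 1244 of all tested genes did, while H1foo had an adjusted p of 0.0583 and, in the list of other chromatin genes, Ruvbl1 one of 0.0560. Without counts, depth limits cannot be given. H1f0, Npm3, and H2afx in Lsm14b-KO were near or below 1 FPKM, and their precision was not measured.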
